A study of Homo sapiens with 8 samples.

Results

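The HOX cluster genes are the homeobox transcription factor genes that sit side by side in the HOXA, HOXB, HOXC and HOXD clusters. They were taken as every row of the deposited expression table named HOX followed by A, B, C or D and a number, with a protein-coding RefSeq transcript listed. This gave 39 genes of 62649 in the table: 11 HOXA, 10 HOXB, 9 HOXC and 9 HOXD genes. RNA had been sequenced from AsPC-1 and PANC-1, 2 established human pancreatic cancer cell lines that the labels give as wild type without naming a gene. Each line received vehicle, 10 µM roseoflavin, 1 nM trametinib or both compounds for 24 hours, which made 8 libraries and 1 library per group. Roseoflavin is an antibiotic analogue of riboflavin, and trametinib inhibits the kinases MEK1 and MEK2. Before treatment the cells had grown for 3 days as spheroids in methylcellulose, per the labels.

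HOX proteins bind DNA through the homeodomain, usually with cofactors of the PBX, MEIS and PKNOX families. In the embryo the genes are switched on along the body axis in the order in which they stand in their cluster, low numbers towards the head and high numbers towards the tail, and genes with the same number in different clusters are paralogs. Polycomb complexes keep silent parts of the clusters off, and trithorax complexes keep active parts on. Adult cells often keep the HOX pattern of the position they came from, and cancer cells often depart from it.

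All levels below are transcripts per 1000000 transcripts (TPM), which are corrected for gene length and sum to 1000000 in each library. A gene is called on in a line when it reached 1 TPM in all 4 libraries of that line, off when it stayed under 1 TPM in all 4, and mixed otherwise. The sequencing depth is unknown, so a value near 1 TPM carries an unknown counting error. With 1 library per group no compound has its own replicates, and the tests take their error from the agreement between the lines and between the libraries with and without the other compound. The p-values therefore measure the spread between these libraries only. The number of genes at 1 TPM or more lay between 15280 and 15580 in AsPC-1 and between 17105 and 17201 in PANC-1. Mitochondrial transcripts took between 41.2% and 44.1% of all TPM in AsPC-1 and between 22.8% and 25.6% in PANC-1, which lowers every other gene in AsPC-1 in proportion. All 6 epithelial markers were on in both lines and higher in AsPC-1. EPCAM lay between 1224 and 1485 TPM in AsPC-1 and between 14.5 and 16.8 TPM in PANC-1. Of the 4 fibroblast markers, COL1A1 lay between 98.9 and 107 TPM in PANC-1 and at most 0.121 TPM in AsPC-1, and COL3A1 between 1.69 and 1.98 TPM against at most 0.032 TPM. PDGFRB was under 1 TPM in both lines, and DCN was at 0 in PANC-1 and at most 0.083 TPM in AsPC-1. The acinar markers PRSS1 and CPA1 and the islet markers INS and GCG summed to no more than 0.194 TPM in any library.

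AsPC-1 had 23 HOX cluster genes on, 3 mixed and 13 off, and PANC-1 had 27 on, 3 mixed and 9 off. The lines shared 21 genes that were on in both and 7 that were off in both. In AsPC-1 the genes on were 6 of 11 in HOXA, 9 of 10 in HOXB, 8 of 9 in HOXC and 0 of 9 in HOXD. In PANC-1 they were 7 of 11 in HOXA, 9 of 10 in HOXB, 9 of 9 in HOXC and 2 of 9 in HOXD. The counts by cluster thus differed at HOXA, HOXC and HOXD, most at HOXD with 0 against 2. The identity of the genes on also differed within HOXA. HOXB1, which patterns the hindbrain, and HOXD13, which patterns the digits, were listed at 0 in all 8 libraries.

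**Figure D1:**
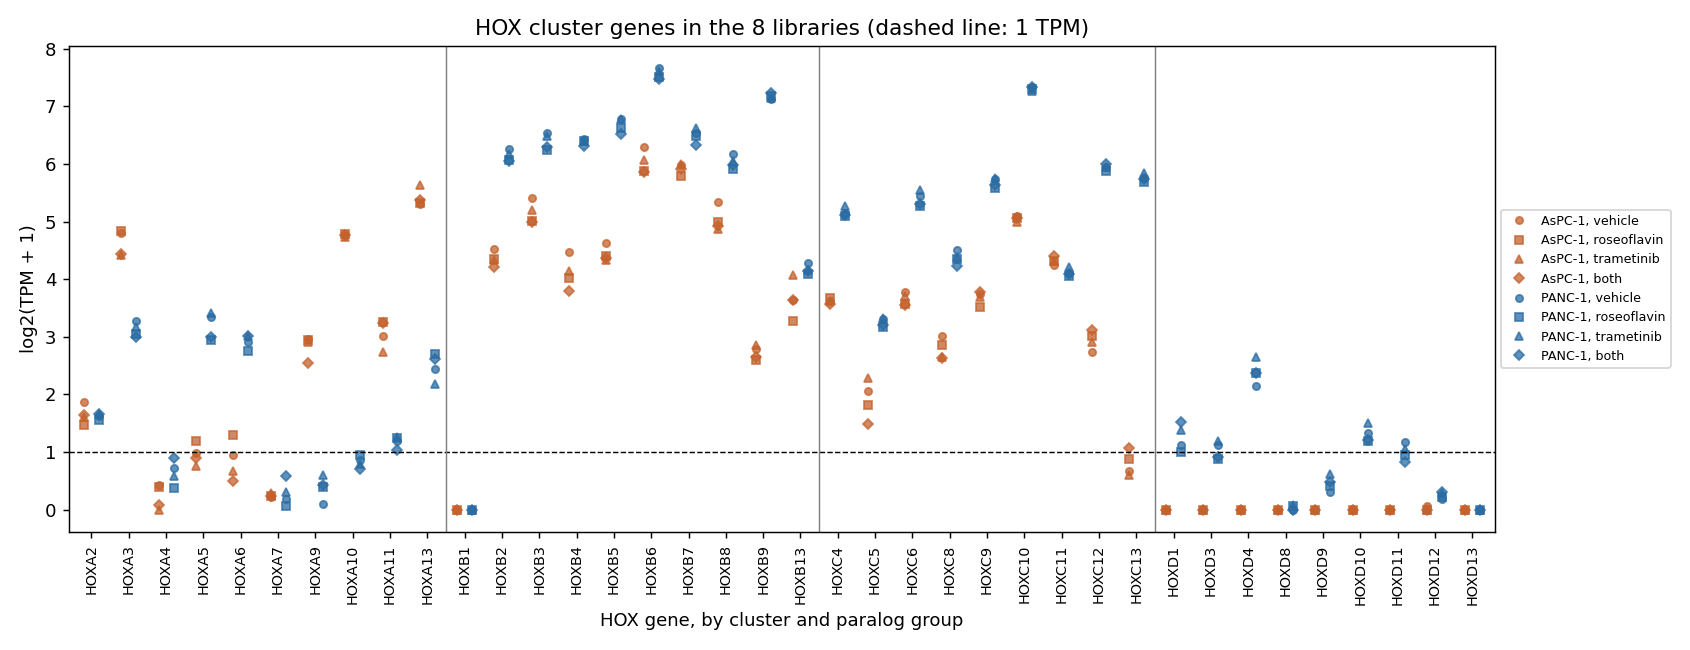
Level of 38 of the HOX cluster genes in the 8 libraries, as log2(TPM + 1) on the vertical axis and the genes on the horizontal axis by cluster and number. Orange points are AsPC-1 and blue points PANC-1, the symbol gives the treatment, and the dashed line marks 1 TPM. The treatments of a line lie close together for most genes, and AsPC-1 lies at or near 0 for all 9 HOXD genes.

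The summed HOX level was higher in PANC-1 in every treatment. In bulk RNA a lower level in every cell and a smaller share of expressing cells cannot be told apart. It was 520 TPM with vehicle, 458 with roseoflavin, 482 with trametinib and 451 with both compounds in AsPC-1, against 1387, 1283, 1373 and 1283 TPM in PANC-1. The 2 lines did not overlap, and in each line the 2 libraries with roseoflavin were the lowest. As a share of non-mitochondrial TPM the summed HOX level was 0.0768% to 0.0885% in AsPC-1 and 0.166% to 0.186% in PANC-1, a narrower gap. HOXB genes held the largest part, between 53.1% and 58.6% of the summed HOX level in AsPC-1 and between 62.1% and 63.9% in PANC-1. HOXA held between 21.4% and 24.9% in AsPC-1 but between 2.88% and 3.10% in PANC-1. HOXC held between 20.0% and 22.8% in AsPC-1 and between 32.6% and 34.1% in PANC-1. HOXA was the one cluster whose summed level was higher in AsPC-1, at 105 to 114 TPM against 37.0 to 41.2 TPM.

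**Figure D2:**
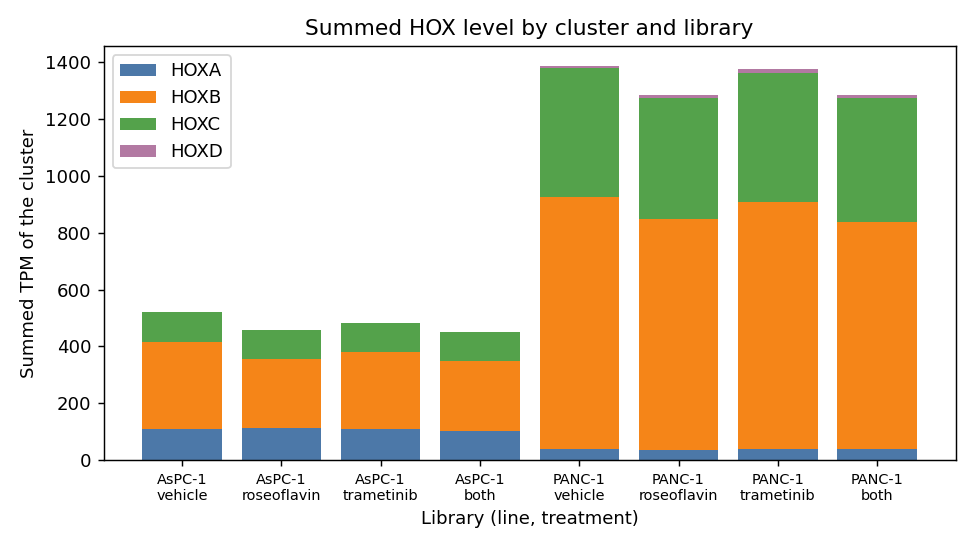
Summed TPM of the genes of each HOX cluster (vertical axis, from 0) in each of the 8 libraries (horizontal axis), stacked by cluster. PANC-1 bars stand between 1283 and 1387 TPM and AsPC-1 bars between 451 and 520 TPM, with HOXB the largest segment in all 8.

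Between the lines, 31 of the 32 HOX cluster genes that passed the filter on low values (at least 1 TPM in 2 libraries) differed, 25 higher in PANC-1 and 6 higher in AsPC-1 (limma on log2(TPM + 1) with Benjamini-Hochberg adjustment over all 19122 genes tested). The background was high: 83.8% of all genes tested differed, 62.3% higher in PANC-1 and 21.5% higher in AsPC-1. Of the 32 genes, 9 passed the filter through PANC-1 only and 2 through AsPC-1 only, where they are high, so their calls are no support. Among the 21 genes that reached 1 TPM in at least 2 libraries of each line, 16 were called higher in PANC-1 and 4 in AsPC-1, beside 63.5% and 19.5% of the 14120 such genes. The other 7 of the 39 (HOXA4, HOXA7, HOXB1, HOXD8, HOXD9, HOXD12 and HOXD13) were not tested. Counted over all 39 genes with no test, the libraries of the lines did not overlap for 33, 27 higher in PANC-1 and 6 higher in AsPC-1, beside 79.2% of all genes tested (59.4% higher in PANC-1 and 19.8% higher in AsPC-1). The median difference over all genes, PANC-1 minus AsPC-1, was 0.55 on the log2 scale, and 1.44 over the 32 HOX cluster genes. Quantile normalization brought the median of all genes to 0.04 and the calls to 41.6% higher in PANC-1 and 37.5% higher in AsPC-1, while the HOX calls became 24 and 7. After leaving out mitochondrial transcripts the median of all genes was 0.25, with 49.7% called higher in PANC-1 and 30.9% higher in AsPC-1, and the HOX calls were again 24 and 7.

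**Figure D3:**
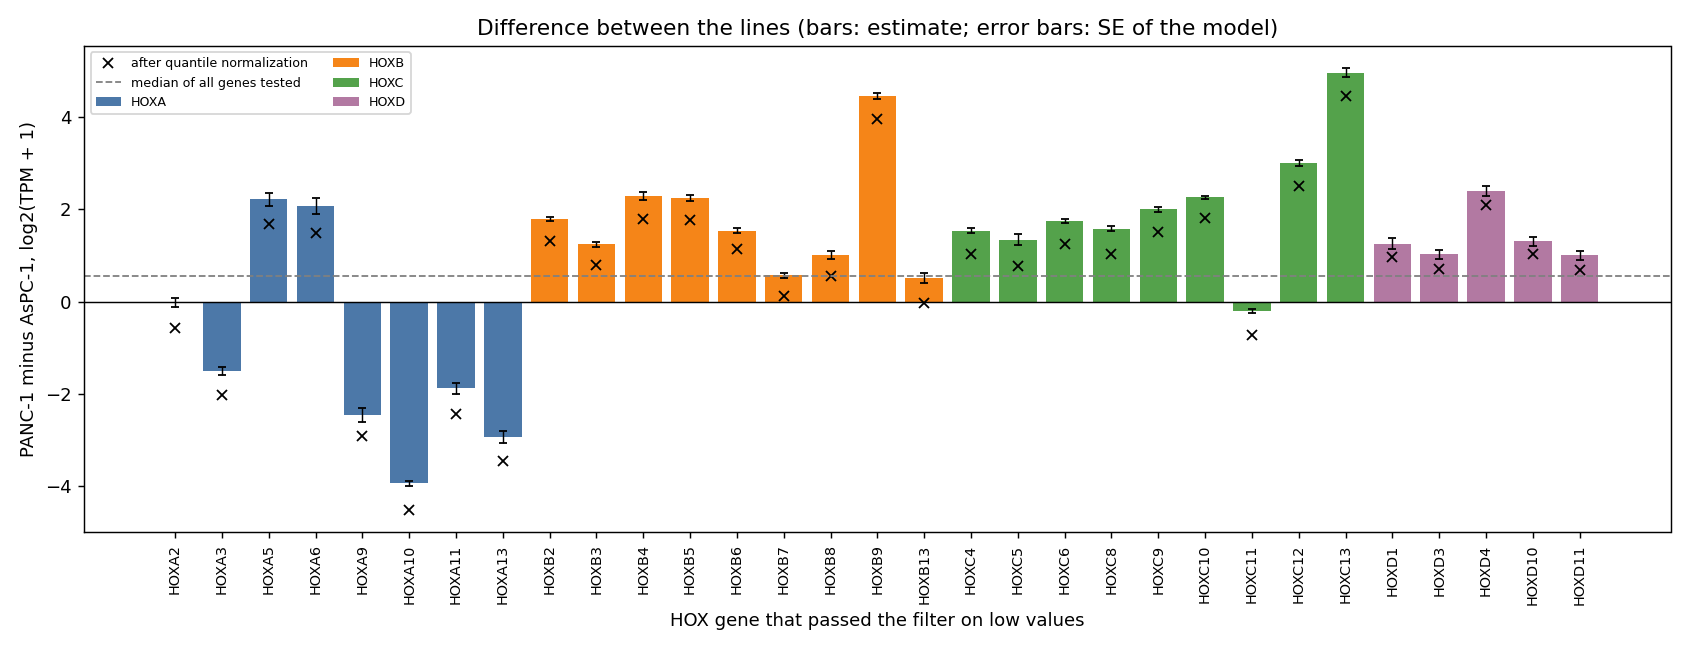
Difference between the lines for 31 HOX cluster genes that passed the filter, as PANC-1 minus AsPC-1 in log2(TPM + 1), with the standard error of the limma model. Crosses give the value after quantile normalization and the dashed line the median of all genes tested (0.55). HOXA9, HOXA10, HOXA11 and HOXA13 lie below 0 and HOXB9, HOXC12 and HOXC13 are the 3 highest bars. HOXB13 turns from above 0 to just below it after quantile normalization.

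The HOXA cluster (chromosome 7, minus strand, GRCh38) was split between the lines. HOXA5 and HOXA6 were among those higher in PANC-1, and HOXA3, HOXA9, HOXA10, HOXA11 and HOXA13 were higher in AsPC-1. HOXA9 and HOXA10, known for roles in blood progenitors and in the posterior trunk, were the 2 genes on in AsPC-1 and off in PANC-1. HOXA10 stood at 26.1 TPM with vehicle, 26.5 with roseoflavin, 25.5 with trametinib and 26.3 with both compounds in AsPC-1, and at 0.811, 0.922, 0.735 and 0.639 TPM in PANC-1. These PANC-1 values lie just under the 1 TPM line, and the lines are far apart in every treatment. The HOXA10 difference was −3.93 on the log2 scale, given without a p because the gene passed the filter through AsPC-1 only. HOXA9 stood at 6.81, 6.70, 6.55 and 4.80 TPM in AsPC-1 and at 0.073, 0.307, 0.520 and 0.342 TPM in PANC-1, in the same order of treatments. Its difference was −2.46, and it too passed the filter through AsPC-1 only.

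HOXA13, a gene of the hindgut, genital tract and distal limb, was on in both lines and among the 5 highest HOX genes of AsPC-1. It stood at 38.6, 39.1, 48.8 and 40.7 TPM in AsPC-1 and at 4.46, 5.49, 3.54 and 5.11 TPM in PANC-1, a difference of −2.93 (SE 0.131, limma adjusted p = 1.3e-06). HOXA11 lay between 5.68 and 8.52 TPM in AsPC-1 and, just above the 1 TPM line, between 1.05 and 1.40 TPM in PANC-1. The 4 posterior genes HOXA9 to HOXA13 were thus higher in all AsPC-1 libraries than in any PANC-1 library, beside 19.8% of all genes tested. Among them HOXA9 and HOXA10 passed the filter through AsPC-1 only. The 4 posterior genes held between 70.6% and 77.8% of the HOXA level in AsPC-1 and between 15.0% and 21.9% in PANC-1.

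Nearer the other end of the cluster, HOXA5, known for its role in lung development, was mixed in AsPC-1 at 0.977, 1.28, 0.698 and 0.871 TPM and on in PANC-1 at 9.13, 6.68, 9.68 and 6.97 TPM. HOXA6 was mixed in AsPC-1 as well, at 0.923, 1.46, 0.594 and 0.417 TPM, and on in PANC-1 at 6.50, 5.72, 7.03 and 7.03 TPM. For both, the single AsPC-1 library at or above 1 TPM was the roseoflavin library. HOXA3 went against HOXA5 and HOXA6, with 20.5 to 27.6 TPM in AsPC-1 and 6.98 to 8.66 TPM in PANC-1. HOXA2 was the one tested gene that did not pass, at 1.75 to 2.67 TPM in AsPC-1 and 1.95 to 2.16 TPM in PANC-1 (difference −0.02, 95% interval from −0.24 to 0.21). It was called lower in PANC-1 after quantile normalization (−0.57, limma adjusted p = 0.00068) and after leaving out mitochondrial transcripts (−0.32, limma adjusted p = 0.02). HOXA4 and HOXA7 were off in both lines, at no more than 0.857 TPM.

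Promoter windows of HOXA9, HOXA10 and HOXA6 are shown because the levels of these genes differed between the lines in opposite directions. The windows are reference sequences and were not read from either line. Each sequence is the 250 bases before a RefSeq transcript start on GRCh38.p14, on the gene's strand, with CG dinucleotides in capitals. HOXA9 and HOXA10 (chr7:27165538-27165787 and chr7:27174321-27174570, minus strand) were on in AsPC-1 and off in PANC-1. HOXA6 (chr7:27147775-27148024, minus strand) was mixed in AsPC-1 and on in PANC-1.
HOXA9: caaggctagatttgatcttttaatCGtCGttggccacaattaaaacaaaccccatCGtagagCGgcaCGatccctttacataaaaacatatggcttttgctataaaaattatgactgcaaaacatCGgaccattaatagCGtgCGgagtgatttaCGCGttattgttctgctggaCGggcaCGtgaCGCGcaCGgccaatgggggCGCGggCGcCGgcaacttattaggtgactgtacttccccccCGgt
HOXA10: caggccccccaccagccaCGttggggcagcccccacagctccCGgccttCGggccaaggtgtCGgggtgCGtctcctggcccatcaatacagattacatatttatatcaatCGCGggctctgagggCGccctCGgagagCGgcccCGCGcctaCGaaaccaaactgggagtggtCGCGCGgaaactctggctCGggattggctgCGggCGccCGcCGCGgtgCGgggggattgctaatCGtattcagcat
HOXA6: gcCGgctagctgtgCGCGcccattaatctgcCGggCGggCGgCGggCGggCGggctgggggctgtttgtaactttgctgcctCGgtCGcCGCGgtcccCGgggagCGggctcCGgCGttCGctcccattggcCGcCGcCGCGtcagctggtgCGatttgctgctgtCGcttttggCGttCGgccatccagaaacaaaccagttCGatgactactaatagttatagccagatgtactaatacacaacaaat
These windows hold no annotated exon. Promoter windows were found for 20 of the 39 genes, as 26 distinct windows, of which 9 are free of exons. HOXA gave 16 of them and HOXD 8, HOXB only that of HOXB1, and HOXC a single window that HOXC4 and HOXC5 share. The shares that follow thus describe mainly HOXA and HOXD windows. At least 10 CG dinucleotides stood in 20 of the 26 windows (76.9%), beside 52.1% of 34935 promoter windows of all genes. CCAAT, searched on both strands, was present in 65.4% of the HOX windows and 32.0% of all windows, and TATAAA in 19.2% and 10.8%. The published HOX and PBX composite motif, searched as TGATTNAT on both strands, was present in 2 of the 26 windows (7.69%), those of HOXA2 and HOXD11, and in 2.49% of all windows. These motif matches describe the letters only, and DNA methylation or protein binding was not measured.

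The HOXB cluster (chromosome 17, 48528526 to 48729178, minus strand) was the most active in both lines. All 9 of its tested genes were called higher in PANC-1, beside 62.3% of all genes tested. After quantile normalization 8 were, beside 41.6%, and without mitochondrial transcripts 8, beside 49.7%. HOXB6 had the highest level of all 39 genes in each line, at 77.7, 57.8, 66.2 and 57.3 TPM in AsPC-1 and 202, 181, 195 and 176 TPM in PANC-1, for vehicle, roseoflavin, trametinib and both compounds. HOXB7 stood at 61.9, 54.6, 62.7 and 59.4 TPM in AsPC-1 and 91.8, 88.2, 97.4 and 79.1 TPM in PANC-1. HOXB3 stood at 41.5, 31.4, 35.8 and 30.8 TPM in AsPC-1 and 92.4, 74.8, 88.7 and 77.9 TPM in PANC-1. These 3 genes did not overlap between the lines, but their differences (1.54, 0.57 and 1.24) were small beside that of HOXB9. For HOXB7 the difference was 0.13 after quantile normalization and 0.18 without mitochondrial transcripts.

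HOXB9 showed the widest difference in the cluster. It was at 5.88, 5.08, 6.24 and 5.30 TPM in AsPC-1 and at 139, 145, 140 and 149 TPM in PANC-1, a 25.5-fold ratio of the means. The difference was 4.45 (SE 0.0618, adjusted p = 8.6e-09 by limma, with a range over the alternatives from 2.6e-10 to 3.8e-07). Its neighbour HOXB8 lay between 28.1 and 39.6 TPM in AsPC-1, above HOXB9 there, and between 59.2 and 71.4 TPM in PANC-1, below HOXB9. HOXB5 was the fourth highest HOX gene of PANC-1, at 109, 98.1, 108 and 90.8 TPM, against 23.8, 20.1, 19.1 and 19.5 TPM in AsPC-1. HOXB13, the distant last gene of the cluster and known from prostate and hindgut, differed least in the cluster: 8.72 to 15.8 TPM in AsPC-1 and 16.0 to 18.5 TPM in PANC-1, a difference of 0.51 (SE 0.112, limma adjusted p = 0.0047). This direction does not hold under scaling, since it was −0.02 after quantile normalization and 0.15 without mitochondrial transcripts, neither of them called.

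The HOXC cluster (chromosome 12, 53938765 to 54056030, plus strand) was on from end to end in PANC-1 and on except HOXC13 in AsPC-1. HOXC10 was the highest HOXC gene in each line, at 33.3, 32.3, 30.9 and 32.4 TPM in AsPC-1 and 162, 156, 153 and 160 TPM in PANC-1 (difference 2.26, SE 0.0367, limma adjusted p = 1.6e-08). HOXC13, a gene of hair and nail formation, was mixed in AsPC-1 at 0.587, 0.843, 0.509 and 1.09 TPM, reaching 1 TPM only with both compounds. In PANC-1 it stood at 53.0, 50.8, 56.6 and 52.1 TPM. Its difference of 4.96 was the largest in size among the 32 genes, and it passed the filter through PANC-1 only. HOXC12, the gene next to it, followed with 5.63 to 7.67 TPM in AsPC-1 and 58.1 to 62.7 TPM in PANC-1 (difference 3.00). HOXC11, the next in line, went the other way, at 17.9 to 20.2 TPM in AsPC-1 and 15.5 to 17.6 TPM in PANC-1 (difference −0.20, SE 0.0485, limma adjusted p = 0.0072). The HOXC11 difference was −0.72 after quantile normalization and −0.58 without mitochondrial transcripts. The other 5 genes, HOXC4, HOXC5, HOXC6, HOXC8 and HOXC9, differed by between 1.34 and 2.00.

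The HOXD cluster (chromosome 2, 176092891 to 176190907, plus strand) was silent in AsPC-1. Of its 9 genes, 8 had a value of 0 in each AsPC-1 library, and HOXD12 was at 0.038 TPM in the vehicle library and at 0 in the others. Among all genes tested, 4.38% were listed at 0 in all 4 AsPC-1 libraries. That share covers only genes that passed the filter, as 5 of the 9 HOXD genes did. In the whole table zeros are common: 33423 of the 62649 genes had a value above 0 in any library. In PANC-1 the cluster was active at a low level, summing to 8.94, 8.77, 11.9 and 9.64 TPM. HOXD4, a hindbrain gene, was on there at 3.43, 4.19, 5.31 and 4.17 TPM, and HOXD10, which acts in lumbar motor neurons, at 1.52, 1.29, 1.85 and 1.31 TPM. HOXD1 (1.18, 0.988, 1.60 and 1.88 TPM), HOXD3 (1.17, 0.840, 1.28 and 0.881 TPM) and HOXD11 (1.26, 0.930, 1.09 and 0.770 TPM) were mixed, on either side of the 1 TPM line. For HOXD1 only the roseoflavin library was below 1 TPM, and for HOXD3 and HOXD11 both libraries with roseoflavin were. HOXD8, HOXD9, HOXD12 and HOXD13 stayed at or below 0.537 TPM in PANC-1. The 5 tested HOXD genes had differences between 1.00 and 2.39, given without a test because each passed the filter through PANC-1 alone.

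The promoters of HOXD3 (chr2:176157057-176157306) and HOXD11 (chr2:176107030-176107279), both on the plus strand, are shown as exon-free windows of the cluster that was silent in AsPC-1, with CG in capitals and 250 bases each.
HOXD3: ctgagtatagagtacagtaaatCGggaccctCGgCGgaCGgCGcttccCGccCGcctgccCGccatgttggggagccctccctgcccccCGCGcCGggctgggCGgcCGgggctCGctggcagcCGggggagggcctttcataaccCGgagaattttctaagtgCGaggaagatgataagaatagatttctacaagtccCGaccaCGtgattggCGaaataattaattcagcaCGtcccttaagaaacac
HOXD11: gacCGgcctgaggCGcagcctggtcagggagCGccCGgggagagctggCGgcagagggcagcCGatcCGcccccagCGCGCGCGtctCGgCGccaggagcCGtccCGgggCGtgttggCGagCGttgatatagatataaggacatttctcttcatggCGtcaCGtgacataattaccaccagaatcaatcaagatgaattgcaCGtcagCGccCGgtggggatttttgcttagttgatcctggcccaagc

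The 4 listed flanking genes of the silent HOXD cluster were on in AsPC-1. EVX2, next to HOXD13 and not in that list, was at 0 in all AsPC-1 libraries and at most 0.101 TPM in PANC-1. MTX2, a mitochondrial import gene beyond HOXD1, was at 73.4, 64.8, 66.1 and 64.2 TPM in AsPC-1 and 56.9, 59.9, 55.4 and 67.6 TPM in PANC-1, with a difference that was not called (−0.16, limma adjusted p = 0.095). LNPK, on the other side, was at 6.14 to 7.35 TPM in AsPC-1 and 11.0 to 12.9 TPM in PANC-1. ATF2 and ATP5MC3 were likewise on in both lines. At the HOXA cluster the flanking gene SNX10 was off in AsPC-1 (0.224 to 0.428 TPM) and on in PANC-1 (10.4 to 12.5 TPM), while SKAP2, HIBADH and TAX1BP1 were on in both.

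Long noncoding RNAs of the clusters differed between the lines in both directions. Of 16 listed, 14 were tested, and 9 were called higher in PANC-1 and 5 in AsPC-1, with 8 and 5 after quantile normalization. The shares over all genes tested were 62.3% and 21.5%, and 41.6% and 37.5% after quantile normalization. HOTTIP, HOXA10-AS and HOXA-AS3 passed the filter through AsPC-1 only, and HOXC13-AS and HAGLR through PANC-1 only, so their calls are no support. HOTTIP, transcribed next to HOXA13, was at 21.9, 18.6, 22.2 and 18.7 TPM in AsPC-1 and 0.963, 0.631, 0.733 and 0.873 TPM in PANC-1. HOXA10-AS (6.93 to 8.05 TPM in AsPC-1, at most 0.434 in PANC-1), HOXA-AS3 (3.04 to 4.47 and at most 0.199) and HOXA11-AS (12.5 to 15.4 and 1.37 to 2.63) were also higher in AsPC-1, as was HOXA-AS2. HOXA-AS3 overlaps exons of HOXA6, which was higher in PANC-1. HOTAIRM1, also in HOXA, went the other way with 3.40 to 5.03 TPM in AsPC-1 and 30.9 to 37.7 TPM in PANC-1. HOXC13-AS was off in AsPC-1 (at most 0.392 TPM) and on in PANC-1 (10.5 to 12.2 TPM). HAGLR, in HOXD, was at 0 in 3 AsPC-1 libraries and 0.021 TPM in the other, and at 8.0, 8.80, 7.71 and 8.07 TPM in PANC-1. HOTAIR, in HOXC, was on in both lines, at 34.4, 27.5, 30.3 and 31.7 TPM and at 85.8, 75.6, 83.4 and 79.0 TPM. The library kit marks strand, but the strand setting of the counting is not given in the sources used here. Of the 39 HOX genes, 24 share exon bases with another annotated gene, 16 on the same strand and 19 on the opposite strand. Reads of such pairs, for example HOXA11 and HOXA11-AS, HOXA10 and HOXA10-AS, HOXB3 and HOXB6, HOXC4 and HOXC6, or HOXD10 and HOXD11, may be divided between them in an uncertain way.

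The clusters also carry microRNA genes. Mature sequences are shown for miR-196b-5p of HOXA and miR-196a-5p of HOXB and HOXC, which share a seed. The sequence of miR-10a-5p of HOXB, with another seed, is shown as well. Capitals mark the seed (bases 2 to 8 from the 5′ end), and the sequences are from RefSeq on GRCh38.p14.
hsa-miR-196b-5p: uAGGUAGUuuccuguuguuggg
hsa-miR-196a-5p: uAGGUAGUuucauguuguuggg
hsa-miR-10a-5p: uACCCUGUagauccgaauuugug
The 2 miR-196 sequences share the seed AGGUAGU and differ by A12C, counted from the 5′ end with the miR-196a base first. MIR196B, which lies in an exon of HOXA9, read 14.1, 3.94, 2.60 and 5.10 TPM in AsPC-1 and was at 0 in PANC-1 throughout. MIR196A1 in HOXB had the opposite pattern, at 0 in all AsPC-1 libraries and 28.6, 22.2, 53.3 and 29.6 TPM in PANC-1. MIR196A2 in HOXC, which encodes the same miR-196a-5p, had no such pattern, at 3.59, 0, 0.992 and 0.973 TPM in AsPC-1 and 1.01, 2.82, 1.30 and 0 TPM in PANC-1. MIR10B in HOXD was at 0 in AsPC-1 and 3.04, 6.59, 6.52 and 1.35 TPM in PANC-1, and MIR7704 in HOXD at 0 and between 4.86 and 7.55 TPM. MIR10A in HOXB was scattered in both lines, with a highest value of 3.97 TPM in AsPC-1 and of 8.08 TPM in PANC-1. These rows are 59 to 110 bases long and were read from a library of polyadenylated RNA, so they do not measure mature miRNA, and a few reads on so short a row give a large TPM. The 8 microRNA genes inside the clusters were chosen after their values were seen.

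HOX cofactors were tested as a list of 9 genes, of which 7 passed the filter. MEIS3 was off in AsPC-1 (0.063 to 0.308 TPM) and on in PANC-1 (8.24 to 9.59 TPM). In all, 5 cofactors were called higher in PANC-1 (PBX2, PBX3, PBX4, MEIS3 and PKNOX1) and 2 in AsPC-1, among them MEIS2, and after quantile normalization 3 and 3. Of 19 Polycomb genes, 16 were called higher in PANC-1 and 0 in AsPC-1, with a median difference of 1.05 beside 0.55 over all genes. After quantile normalization 12 were higher in PANC-1 and 5 in AsPC-1. CBX2 (0.227 to 0.348 against 8.67 to 9.84 TPM) and PHC1 (0.072 to 0.160 against 6.37 to 6.80 TPM), both of the Polycomb repressive complex 1 family, were off in AsPC-1 and on in PANC-1. Of 13 trithorax and demethylase genes, 11 were called higher in PANC-1 and 1 (ASH2L) in AsPC-1, and 8 and 2 after quantile normalization. The shares over all genes tested, given above, were 62.3% and 21.5%, and 41.6% and 37.5% after quantile normalization. Some of the genes counted here, among them MEIS3, CBX2 and PHC1, passed the filter only through the line where they are high. Calls of such genes are no support.

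For the compounds, none of the HOX cluster genes passed the test. With limma and Benjamini-Hochberg adjustment, 0 of 32 were called for roseoflavin, trametinib, the difference of either between the lines, or their interaction. The background over all genes tested was 0% for both main effects, 0.0261% for the roseoflavin by line difference (5 genes, no HOX gene) and 0% for the other interactions, so the absence of calls is not particular to HOX genes. DUSP6, a direct readout of MEK signalling, stood at 193, 176, 155 and 136 TPM in AsPC-1 and 18.6, 17.5, 14.0 and 12.5 TPM in PANC-1. It was lower with trametinib in all 4 matched comparisons, and it was not called either (−0.38, SE 0.036, limma adjusted p = 0.564). At an unadjusted p under 0.05, 8 HOX genes stood out for roseoflavin (25.0%, background 7.10%), 3 for trametinib (9.38%, background 4.91%), 6 for the roseoflavin by line difference (18.8%, background 9.97%), 3 for the trametinib by line difference (9.38%, background 7.28%) and 0 for the interaction of the compounds (background 2.80%).

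Most HOXB genes had lower values with roseoflavin, without passing the test. A matched comparison sets a library with a compound against the library of the same line that differs only in that compound, and 4 exist for each compound. HOXB values with roseoflavin were lower in 4 of 4 comparisons for 6 of 9 tested genes, HOXC values for 3 of 9 and HOXA values for 0 of 9. The 5 tested HOXD genes could not be lower in all 4, since they were at 0 in AsPC-1. Together these are 9 of 32, beside 10.2% of all genes tested, and 8 of the 20 that averaged 10 TPM or more, beside 10.7% of such genes. No HOX gene was higher in 4 of 4 (background 4.91%, and 5.96% for genes averaging 10 TPM or more). The median HOXB difference was −0.34 in AsPC-1 and −0.20 there in the presence of trametinib, and −0.15 and −0.12 in PANC-1, beside −0.05, 0.00, 0.00 and 0.00 over all genes. In PANC-1 the medians of HOXC (−0.07 and −0.12) and HOXD (−0.14 and −0.28) were below 0 as well. HOXC values there were lower for 9 of 9 and 7 of 9 genes, beside 9396 and 9038 of all 19122 genes tested. In AsPC-1 HOXC values were lower for 5 of 9 and 4 of 9 genes (medians −0.04 and 0.07), beside 11755 and 9807 of all genes tested. After quantile normalization 8 genes were lower in 4 of 4, beside 6.74% of all genes. Several neighbouring HOXB and HOXC genes share exons, so their values are not separate measurements.

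HOXB3 had the smallest p for roseoflavin: the per-library values above give 41.5 to 31.4 and 35.8 to 30.8 TPM in AsPC-1 and 92.4 to 74.8 and 88.7 to 77.9 TPM in PANC-1. The limma estimate was −0.27 (SE 0.0494, unadjusted p = 0.0013, adjusted p = 0.595, and 0.43 to 1.00 over the alternatives). All 4 roseoflavin libraries lay below their matched libraries, and the 2 roseoflavin libraries of each line lay below the 2 without it. HOXC6 followed, at 12.7, 10.9, 12.0 and 10.7 TPM in AsPC-1 and 42.8, 37.7, 45.6 and 38.5 TPM in PANC-1, with an estimate of −0.19 (SE 0.0405, limma adjusted p = 0.599, and 0.465 to 1.00 over the alternatives). HOXB6, the highest HOX gene, had an estimate of −0.23 and HOXB4 one of −0.24, both lower in 4 of 4. HOXB9, by contrast, was lower with roseoflavin in both AsPC-1 comparisons and higher in both PANC-1 comparisons, and it had the smallest p for the difference between the lines (0.27, SE 0.0628, limma adjusted p = 0.356, and 0.3 to 0.79 over the alternatives). HOXC13 was next, with a PANC-1 change below the AsPC-1 change by 0.43 on the log2 scale (limma adjusted p = 0.378), at under 1.1 TPM in AsPC-1.

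Trametinib values were lower in 4 of 4 matched comparisons for 7 of 32 HOX genes (background 4.54%) and higher in 4 of 4 for 3 (background 9.66%). HOXC8, which patterns the thoracic region, had the smallest p: it stood at 7.07, 6.26, 5.28 and 5.23 TPM in AsPC-1 and 21.7, 19.4, 19.9 and 17.8 TPM in PANC-1. The estimate was −0.21 (SE 0.0554, limma adjusted p = 0.861, and 0.673 to 1.00 over the alternatives). HOXB2, a hindbrain gene, stood at 21.9, 19.4, 19.2 and 17.4 TPM in AsPC-1 and 76.1, 66.5, 70.9 and 65.4 TPM in PANC-1, with an estimate of −0.11 (limma adjusted p = 0.861, with the same range). The difference of the trametinib change between the lines had its smallest p for HOXA6 (0.71, limma adjusted p = 0.655) and HOXA3 (0.32, limma adjusted p = 0.671). HOXA3 was at 27.0 and 27.6 TPM without and 20.5 and 20.6 TPM with trametinib in AsPC-1, while its PANC-1 values overlapped. For the interaction of the compounds HOXB8 (0.29) and HOXC9 (0.18) had the smallest p, both with a limma adjusted p of 1.00. Over the alternatives the estimates lay between 0.17 and 0.42 for HOXB8, lowest without the AsPC-1 trametinib library, and between 0.0854 and 0.27 for HOXC9, lowest without the AsPC-1 library with both compounds.

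**Figure D4:**
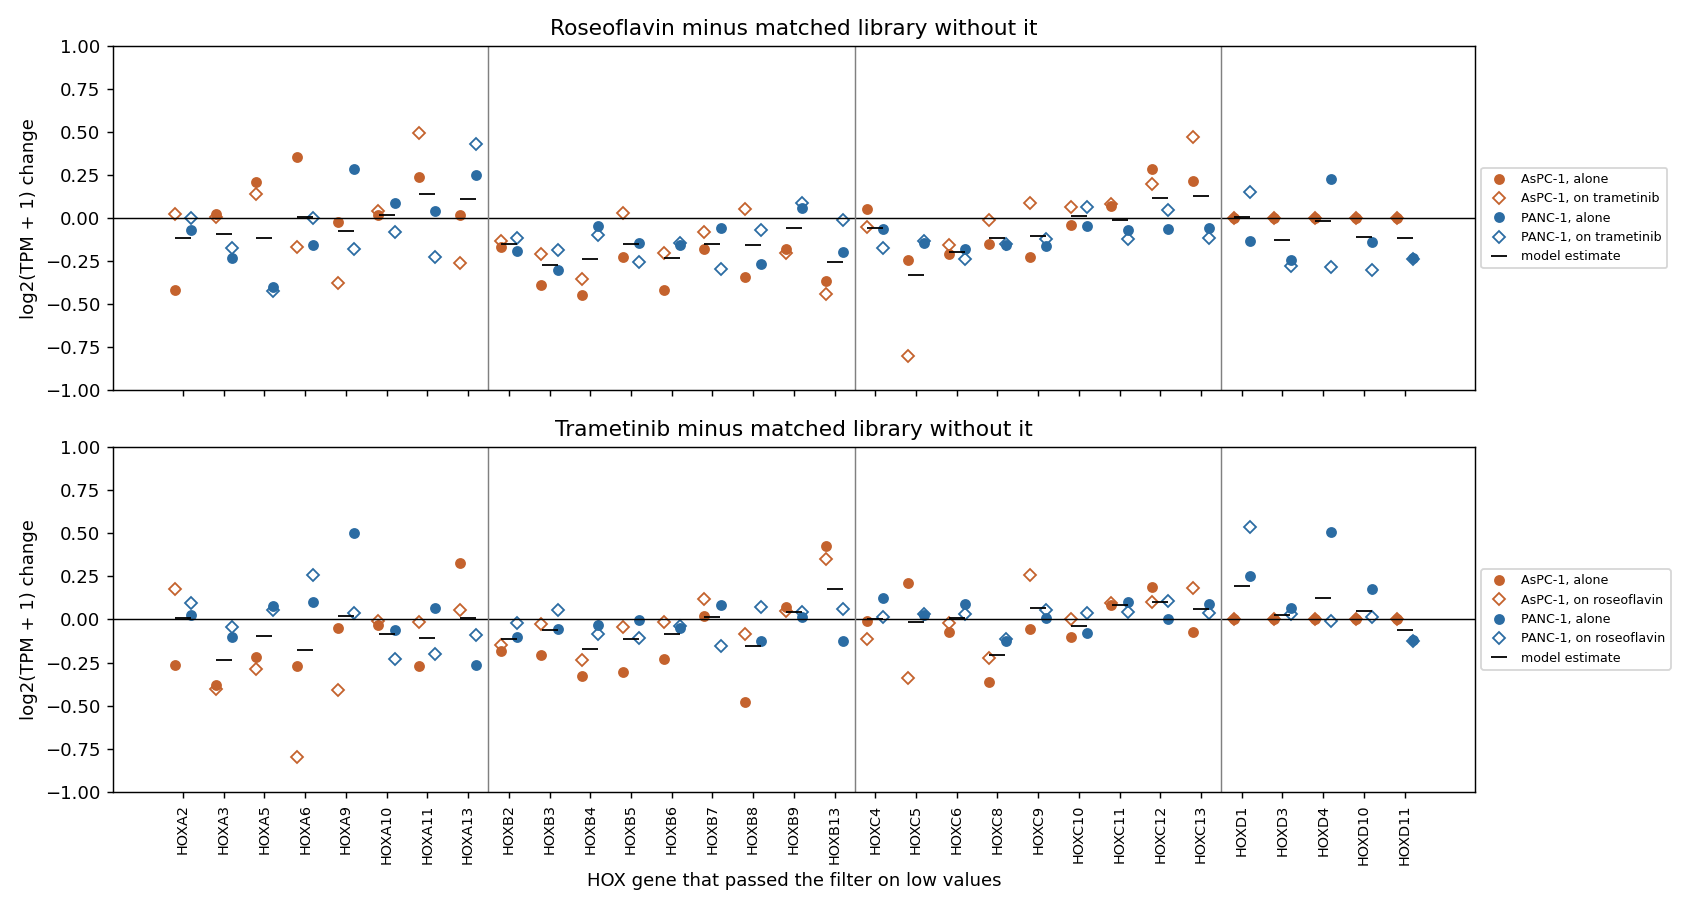
Change of 31 tested HOX genes with roseoflavin (upper panel) and with trametinib (lower panel) in the 4 matched comparisons, in log2(TPM + 1), AsPC-1 orange and PANC-1 blue. Filled circles are the compound alone, open diamonds the compound on top of the other, and bars the limma estimate. HOXB points in the upper panel lie mostly below 0, and no estimate in either panel passed the test.

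Measured as single libraries against the vehicle of the same line, 0 of 39 HOX genes changed at least 2-fold on the log2(TPM + 1) scale in any of the 6 comparisons. The scale hides changes in low genes. In plain TPM, HOXA6 in AsPC-1 went from 0.923 with vehicle to 0.417 with both compounds. HOXA9 in PANC-1 went from 0.073 with vehicle to 0.520 with trametinib. The shares that follow cover genes that passed the filter, and 7 of the 39 did not pass it. Among all genes tested the share was 2.33% with roseoflavin, 2.47% with trametinib and 2.38% with both compounds in AsPC-1. The PANC-1 shares were 2.42%, 2.69% and 2.77% in the same order. The comparisons of a line share their vehicle library. In AsPC-1 the largest change was in HOXB4, which was at 21.2 TPM with vehicle and 12.8 TPM with both compounds (0.68 lower on the log2 scale). In PANC-1 the largest was HOXD4 with trametinib, from 3.43 to 5.31 TPM (0.51 higher). The genes that crossed 1 TPM were the 6 mixed ones, HOXA5, HOXA6 and HOXC13 in AsPC-1 and HOXD1, HOXD3 and HOXD11 in PANC-1.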

How the data were processed

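The deposited table gives TPM for 8 libraries (2 lines, 4 treatments, 1 library each); TPM values were computed by the authors and sum to 1000000 per library, so depth is unknown. Per the submitters' processing notes, STAR 2.7.3a, HTSeq 2.0.2 and hg38 were used. The annotation, strand setting and gene length behind the TPM are not given in the sources used here. Libraries came from a stranded poly(A) kit, per the labels' protocols.

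Here 985926 blank rows were dropped, leaving 62649 genes. Coordinates are from GENCODE release 29. Genes with at least 1 TPM in 2 libraries (19122) were fitted as log2(TPM + 1) with limma 3.58.1 in R 4.3.3 (line, roseoflavin and trametinib as terms, trend in the prior variance, 4 residual degrees of freedom, 3 with an interaction), with Benjamini-Hochberg adjustment over all genes and a threshold of 0.05. Fold changes on this scale understate low genes. The procedure was tested on simulated data.

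Genes were named if among the 5 highest in a line, on in 1 line and off in the other, mixed, or of the 2 smallest p in a contrast. List genes that passed a contrast were counted and some named, with those on in 1 line and off in the other, PDX1 and DUSP6. A few more were named after their values were seen: HOXA2, HOXA11, HOXB4, HOXB13, HOXC11, HOXC12 and the flanking and cluster noncoding genes shown as examples. Members and lists were chosen with earlier results of these data known. Some genes that meet these rules are not reported here.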

Additional observations from a re-analysis of the deposited data

How the results depend on the processing

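Each compound and interaction comparison had 0 HOX genes called under every alternative run (pseudocount 0.1, no filter, a mean of at least 10 TPM, quantile normalization, no mitochondrial transcripts, each library left out, and for the main effects no line term and no variance trend). Between the lines 31 genes were called, 33 of 37 tested with no filter, and 20 of 20 with a mean of at least 10 TPM, where fewer genes were tested. The 31 called after quantile normalization gained HOXA2 and lost HOXB13. With a pseudocount of 0.1, counted over all 39 genes, the genes past 2-fold against vehicle were 1 in AsPC-1 with trametinib and 1 with both compounds (HOXA4, −2.15 and −1.45 on the log2 scale), and in PANC-1 1 with roseoflavin, 1 with trametinib and 2 with both compounds (HOXA9, 1.23, 1.84 and 1.35, and HOXA7, 1.31). All 3 were under 1 TPM there. The line difference of HOXA2 lay between −0.0809 and 0.0693 with each library left out, above 0 without the AsPC-1 vehicle, AsPC-1 both-compound or PANC-1 vehicle library, and that of HOXB13 was −0.0215 after quantile normalization; the cause was not tested. The alternatives for roseoflavin lower in 4 of 4 comparisons, and the count over genes at 1 TPM in both lines, were chosen after seeing the data. Unknown depth limits values near 1 TPM, and the on and off calls depend on that cut-off. At 0.5 TPM, HOXA10 would be on in PANC-1 (lowest value 0.639 TPM) and HOXA5 in AsPC-1 (lowest 0.698 TPM). At 2 TPM, HOXD10 would be off in PANC-1 (highest value 1.85 TPM). Pairing by replicate was not possible because every group is 1 library and the labels carry no replicate numbers. Line entered the fits as a term, and the matched comparisons paired libraries of the same line.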

Other observations

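The retinoid pathway, which can switch HOX genes on in order along a cluster, had 12 of 15 listed genes tested for the line difference. With limma and Benjamini-Hochberg adjustment 7 were called higher in PANC-1 and 4 in AsPC-1, and 6 and 5 after quantile normalization. The shares over all genes tested were 62.3% and 21.5%, and 41.6% and 37.5% after quantile normalization. CYP26A1 and CYP26B1 passed the filter through PANC-1 only, and ALDH1A1 and STRA6 through AsPC-1 only, so their calls are no support. CRABP2, a retinoic acid binding protein, lay between 9.32 and 13.4 TPM in AsPC-1 and between 1447 and 1549 TPM in PANC-1. The retinoic acid degrading enzymes CYP26B1 (0.456 to 0.721 against 9.96 to 12.2 TPM) and CYP26A1 (at most 0.033 against 1.26 to 1.84 TPM) were off in AsPC-1 and on in PANC-1. The retinaldehyde dehydrogenase ALDH1A1 lay between 31.6 and 54.6 TPM in AsPC-1 and at most at 0.039 TPM in PANC-1, and ALDH1A3 between 266 and 315 TPM against 68.3 and 70.5 TPM. STRA6, a retinol uptake receptor, was on in AsPC-1 (2.46 to 3.04 TPM) and off in PANC-1 (at most 0.073 TPM). None of the 12 was called for a compound, as for all other lists.

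The ParaHox genes are the sister group of the HOX genes. PDX1, the pancreatic ParaHox gene, was at 11.0, 10.9, 11.6 and 11.6 TPM in AsPC-1 and 4.28, 4.38, 4.69 and 4.78 TPM in PANC-1 with vehicle, roseoflavin, trametinib and both compounds. CDX2, the intestinal one, was at 28.9, 24.4, 35.4 and 31.7 TPM in AsPC-1 and 3.61, 4.0, 3.84 and 3.24 TPM in PANC-1. Both were called higher in AsPC-1 (limma, −1.15 and −2.73), also after quantile normalization, and they were the 2 tested genes of 8 ParaHox and EVX genes. Over all genes tested the share called higher in AsPC-1 was 21.5%, and 37.5% after quantile normalization. EVX1, next to HOXA13, stayed under 1 TPM in all 8 libraries.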
